A study of Homo sapiens with 16 samples.

Results

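The snoRNA host genes described here are 10 noncoding genes whose introns carry small nucleolar RNAs: GAS5, SNHG1, SNHG5, SNHG6, SNHG16, SNHG7, SNHG8, SNHG15, EPB41L4A-AS1 and SNHG12. They were taken by gene symbol from the 12676 genes of the count table, with earlier results of these data known, and all 10 had a row. RNA-seq was performed on the human lung carcinoma line H1299 (of the non-small cell type) after infection with lentivirus carrying a pLKO control shRNA (shNT) or a pLKO shRNA against YEATS2 (shYEATS2), with 2 libraries in each group. YEATS2 is a reader of acetylated histone H3 and a subunit of the ATAC histone acetyltransferase complex, and the comparison asks which RNAs change when it is depleted. All cells, controls included, had been exposed to virus with polybrene at 8 µg per ml and then selected with puromycin at 2 µg per ml, which was added after 48 h and kept for 4 to 7 days according to the labels. The labels do not name the YEATS2 hairpin used in these libraries, and the cells were a selected pool of a single line.

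Small nucleolar RNAs guide chemical modification of ribosomal RNA. Box C/D snoRNAs guide methylation of ribose and box H/ACA snoRNAs guide the conversion of uridine to pseudouridine. In human cells most of them are cut out of the introns of a host transcript. The spliced host RNA that remains encodes no known protein in these genes, is often degraded by nonsense-mediated decay when it is translated, and in several hosts begins with a terminal oligopyrimidine (TOP) tract like that of ribosomal protein mRNAs. The level of a spliced host RNA is thus a separate quantity from the level of the snoRNAs it released, and only the host RNA was measured here. By RefSeq annotation, 34 snoRNA genes lie inside the 10 hosts, 25 of them named as box C/D and 9 as box H/ACA. None of the 34 has a row in the count table, which holds 1 snoRNA in all. GAS5 holds 11 of them, SNHG1 holds 8, SNHG12 holds 4 and SNHG16 holds 3. Those in GAS5 include SNORA103, named as box H/ACA, but GAS5 was grouped with the C/D hosts. SNHG5 and SNHG7 hold 2 each, and SNHG6, SNHG8, SNHG15 and EPB41L4A-AS1 hold 1 each.

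Sequences of the GRCh37 (hg19) genome are shown for 2 features by which these genes are known, the snoRNA in the intron and the start of the host RNA. SNORA13, the box H/ACA snoRNA in an intron of EPB41L4A-AS1, spans 133 bases at chr5:111497182-111497314 on the plus strand. SNORD1B, a box C/D snoRNA in an intron of SNHG16, spans 84 bases at chr17:74557191-74557274 on the plus strand. Capitals mark the ACA box near the end of SNORA13 and the matches to the C box (TGATGA) and D box (CTGA) of SNORD1B.
SNORA13: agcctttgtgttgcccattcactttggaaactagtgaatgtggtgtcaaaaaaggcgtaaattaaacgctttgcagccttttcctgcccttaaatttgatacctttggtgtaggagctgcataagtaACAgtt
SNORD1B: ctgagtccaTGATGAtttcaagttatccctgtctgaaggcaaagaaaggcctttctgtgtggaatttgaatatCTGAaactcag

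The RefSeq promoter table held start regions for 8 of the 10 hosts, and each matched GRCh37 at a single place. The lines that follow give 40 bases before and 20 bases from the annotated first base for 5 hosts, with capitals for a pyrimidine tract and for a TATAA match. A tract was counted as a C followed by at least 4 pyrimidines, on the transcribed strand, starting within 15 bases of the first base. TATAA was searched on the same strand from 40 to 16 bases before the first base.
EPB41L4A-AS1 at chr5:111496183-111496242 on the plus strand: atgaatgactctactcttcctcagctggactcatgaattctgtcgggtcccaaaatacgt
SNHG7 at chr9:139622617-139622676 on the minus strand: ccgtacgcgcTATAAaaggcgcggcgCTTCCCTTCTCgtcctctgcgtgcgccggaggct
SNHG8 at chr4:119199877-119199936 on the plus strand: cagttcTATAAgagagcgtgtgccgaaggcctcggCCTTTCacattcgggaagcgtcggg
SNHG5 at chr6:86388432-86388491 on the minus strand: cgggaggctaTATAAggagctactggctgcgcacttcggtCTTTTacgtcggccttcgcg
SNHG12 at chr1:28908366-28908425 on the minus strand: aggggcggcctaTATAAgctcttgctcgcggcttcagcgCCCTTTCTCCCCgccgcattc
SNHG5 and SNHG12 were the 2 of 8 hosts in which the tract ran from the annotated first base itself, against 4.07% of all 35116 promoters in the table. A tract began within 15 bases of the first base in 5 of 8, which also holds for 42.6% of all promoters. TATAA was found in 4 of 8, namely SNHG5, SNHG7, SNHG8 and SNHG12, against 3.91% of all promoters. The start regions of GAS5, SNHG1 and EPB41L4A-AS1 held neither motif in these windows, which says only that the letters are not there at the annotated start. For GAS5 that RefSeq start lies upstream of the whole gene span in GENCODE, so its window may not be that of the RNA counted here. The windows of SNHG1, SNHG5, SNHG8 and SNHG12 lie inside the GENCODE spans, which reach further upstream. On the minus strand the spans begin at 86388650 for SNHG5 and at 28909644 for SNHG12. The first base with a tract in these 2 hosts is thus that of RefSeq, and may not be that of the RNA counted.

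The 4 libraries held 34718921 to 39417787 reads in listed genes, and counts are given scaled to the mean library size by the TMM method of edgeR. The test was the quasi-likelihood test of edgeR, adjusted by the Benjamini-Hochberg method over all 12676 genes, and a gene was called at a false discovery rate (FDR) under 0.01. YEATS2 itself had scaled counts of 4482 and 4104 in shNT and 665 and 673 in shYEATS2 libraries, a log2 fold change of -2.68 (SE 0.10, FDR 0.000583). The keratin gene KRT8 (9462 to 14773 reads) and vimentin (VIM, 89047 to 105695 reads) were present in every library. Among other keratins KRT7 had 56 to 240 reads and was called higher (log2 fold change 1.55, FDR 0.00349, quasi-likelihood test), and KRT18 was at -0.81 (FDR 0.0283), and their part in the host results was not tested. In contrast, the epithelial markers KRT19, EPCAM and CDH1 and the blood, endothelial, liver and fibroblast markers PTPRC, CD3E, LYZ, PECAM1, ALB and COL1A1 had no row. In bulk RNA a smaller share of cells that express a gene and less RNA per cell cannot be told apart.

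The snoRNA host genes did not move as a block after YEATS2 knockdown (KD). SNHG15 was called lower, EPB41L4A-AS1 and SNHG7 were called higher, and the other 7 were not called. Thus 1 of 10 was lower, where 12.5% of all genes were called lower, and 2 of 10 were higher, where 12.9% were called higher. The calls over all genes were 1581 lower and 1630 higher on the TMM scale and 1166 lower and 2363 higher with scaling by total counts. The median log2 fold change of the 10 hosts was 0.15, with a range from -1.09 to 1.30, and that of all genes was -0.0019. At an unadjusted p under 0.05, 3 hosts were lower and 4 higher, against 3528 lower and 3636 higher of all 12676 genes. Both shYEATS2 libraries lay below both shNT libraries in 4 hosts and above them in 5, and they overlapped in SNHG8. Among all genes the groups stood apart in the same way for 39.8% downwards and 39.7% upwards. The 10 hosts together had 891 and 927 CPM (counts relative to the TMM-scaled library size) in shNT cells and 841 and 1013 after YEATS2 KD, so the summed level overlapped between the groups.

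**Figure D1:**
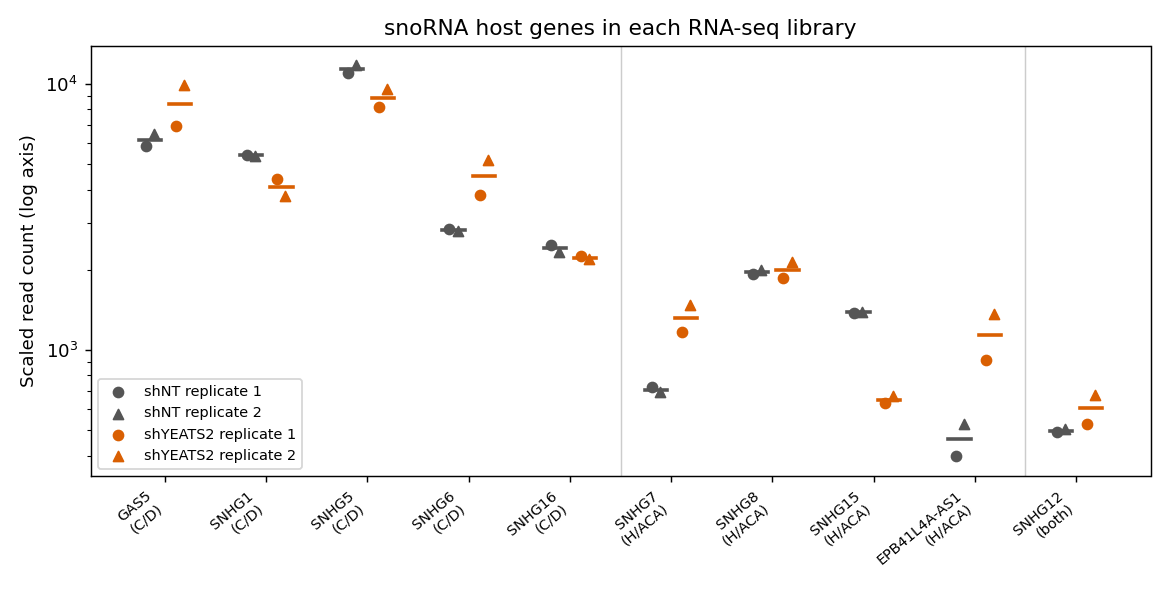
Scaled read counts (log axis) of the 10 snoRNA host genes, with circles for replicate 1, triangles for replicate 2, bars for the mean of 2 libraries, and the class of snoRNA hosted in parentheses. GAS5, marked C/D, also holds 1 H/ACA snoRNA gene. SNHG15 lies near 1382 in shNT and 649 in shYEATS2, EPB41L4A-AS1 and SNHG7 lie higher in both shYEATS2 libraries, and SNHG8 overlaps.

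The 3 called genes are among the 4 hosts that hold only box H/ACA snoRNA genes, and 25.3% of all genes were called in either direction. The classes were not compared by a test, and the C/D hosts GAS5, SNHG1, SNHG5 and SNHG6 each passed 0.01 in some other fit. SNHG15 (ENSG00000232956), which carries SNORA9, lies on chromosome 7 of GRCh37 from 45022618 to 45026560 on the minus strand. The shNT libraries had 1375 and 1389 scaled reads of it, and the shYEATS2 libraries had 629 and 669. The replicates of each group lay close together, and the groups stood far apart. On average there were 1382 ± 9.53 reads (SD, n = 2) in shNT and 649 ± 28.6 reads (SD, n = 2) in shYEATS2 libraries, which is 2.13-fold lower in YEATS2 KD cells. This is a log2 fold change of -1.09 (SE 0.10, FDR 0.00109 in edgeR's quasi-likelihood test). SNHG15 was called lower in all 12 alternative fits, with log2 fold changes from -1.14 to -0.97.

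EPB41L4A-AS1 (ENSG00000224032), the host of SNORA13, lies on chromosome 5 from 111496223 to 111500515 on the plus strand. Its scaled counts were 397 and 525 in shNT and 912 and 1359 in shYEATS2 libraries. Both knockdown libraries were above both controls, although replicates differed in each group. The mean rose from 461 ± 90.5 (SD, n = 2) to 1135 ± 316 (SD, n = 2), and the fold change was 2.46 with a 95% interval from 1.71 to 3.55. On the log2 scale this was 1.30 (SE 0.22, FDR 0.00451 in the quasi-likelihood test), and it lay between 0.98 and 1.56 when any single library was left out. The log2 ratio of EPB41L4A-AS1 to SNHG15 in scaled counts was -1.79 and -1.40 in control cells and 0.54 and 1.02 in KD cells. These 2 genes had the largest rise and the largest fall among the hosts. The shift in their ratio therefore restates their 2 calls and is not a separate result. Scaled counts are not divided by length, so the sign of this ratio does not rank the 2 RNAs by level. An exact permutation test on 2 against 2 libraries cannot give a p below 0.333, so this ratio was not tested further.

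SNHG7 (ENSG00000233016), the host of SNORA17A and SNORA17B, lies on chromosome 9 from 139615818 to 139622636 on the minus strand. It had scaled counts of 721 and 693 in shNT and 1162 and 1476 in shYEATS2 libraries. The control libraries nearly coincided, and shYEATS2 replicate 2 was above replicate 1. The mean went from 707 ± 19.6 (SD, n = 2) to 1319 ± 222 (SD, n = 2), a rise of 1.87-fold and 0.90 on the log2 scale (SE 0.14, FDR 0.00343 in the quasi-likelihood test). The call was lost by a small margin without shNT replicate 2, where the log2 fold change was 0.87 and the FDR 0.0104.

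SNHG8 (ENSG00000269893), the host of SNORA24 on chromosome 4 from 119199858 to 119206471, was the host with overlapping groups. Its scaled counts were 1927 and 2000 in shNT and 1859 and 2144 in shYEATS2 libraries. Its log2 fold change was 0.03 with a 95% interval from -0.22 to 0.28 and an FDR of 0.843 in the quasi-likelihood test. The 2 group means thus differed by less than the spread of the knockdown libraries. The sum of the 4 H/ACA hosts was 121 and 126 CPM in shNT and 125 and 155 in shYEATS2 libraries, overlapping although 3 of the 4 members were called.

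No host grouped as box C/D was called at an FDR under 0.01, and this group includes GAS5, which also holds 1 box H/ACA snoRNA gene. GAS5 (ENSG00000234741), the growth arrest-specific gene that holds more box C/D snoRNA genes than any other of the 10, lies on chromosome 1 from 173827697 to 173838020 on the minus strand. Its scaled counts were 5815 and 6484 in shNT and 6949 and 9853 in shYEATS2 libraries. Both knockdown libraries were above the controls, but replicate 1 only slightly so. The log2 fold change was 0.45 (SE 0.17, FDR 0.0631 in the quasi-likelihood test). With the replicate number as a block in that test it was 0.43 (FDR 0.00703). Without shYEATS2 replicate 1 it was 0.68 with an FDR of 0.00285, and without shYEATS2 replicate 2 it was 0.18 with an FDR of 0.249, so the size of the GAS5 difference rested on which knockdown library was used.

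SNHG6 (ENSG00000245910) came nearest to the threshold among hosts that were not called. It carries SNORD87 and lies on chromosome 8 from 67832796 to 67838633 on the minus strand. The scaled counts were 2838 and 2797 in shNT and 3804 and 5162 in shYEATS2 libraries. The shNT libraries were nearly equal and both shYEATS2 libraries were higher. This gave a log2 fold change of 0.67 (SE 0.15, FDR 0.0115 in the quasi-likelihood test), a fold of 1.59 with a 95% interval from 1.24 to 2.04. It passed 0.01 in 5 of 8 other tests, scalings and filters, among them DESeq2 (FDR 0.000182) and edgeR's exactTest (FDR 0.000268), but in only 1 of 4 fits with a library left out. Without shYEATS2 replicate 1 the log2 fold change of SNHG6 was 0.87 (FDR 0.000757), and without shYEATS2 replicate 2 it was 0.43 (FDR 0.017).

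SNHG1 and SNHG5 lay on the other side. SNHG1 (ENSG00000255717), with 8 box C/D snoRNAs in its introns, lies on chromosome 11 from 62619450 to 62623425 on the minus strand. Its scaled counts were 5411 and 5348 in shNT and 4375 and 3780 in shYEATS2 libraries, and the groups did not overlap. The log2 fold change was -0.40 (SE 0.11, FDR 0.0201 in the quasi-likelihood test), which passed 0.01 with exactTest (FDR 0.00513) and DESeq2 (FDR 0.00673). SNHG5 (ENSG00000203875), the host of SNORD50A and SNORD50B on chromosome 6 from 86360209 to 86388650, was the most abundant host by reads in 3 of the 4 libraries. It had 11007 and 11710 scaled reads in shNT and 8170 and 9574 in shYEATS2 libraries. Its log2 fold change was -0.36 (SE 0.11, FDR 0.0353 in the quasi-likelihood test). With the replicate number as a block in that test the FDR of SNHG5 was 0.00653.

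SNHG16 (ENSG00000163597), the host of SNORD1A, SNORD1B and SNORD1C on chromosome 17 from 74553809 to 74667067, had 2479 and 2333 scaled reads in shNT and 2244 and 2198 in shYEATS2 libraries. The groups stood apart by a narrow gap. The log2 fold change was -0.12 with a 95% interval from -0.34 to 0.10 (FDR 0.329, quasi-likelihood test), and its sign turned to 0.0043 with scaling by total counts. SNHG12 (ENSG00000197989) on chromosome 1 from 28905050 to 28909644 holds both kinds of snoRNA. Its scaled counts of 488 and 502 in shNT and 526 and 676 in shYEATS2 libraries gave a log2 fold change of 0.28 (95% interval from -0.08 to 0.64, FDR 0.165, quasi-likelihood test). It was 0.45 (FDR 0.0301) without shYEATS2 replicate 1 and 0.09 (FDR 0.66) without shYEATS2 replicate 2. The 5 C/D hosts summed to 756 and 787 CPM in shNT and 701 and 839 in shYEATS2 libraries, which overlap.

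The knockdown replicates differed in 1 direction for most hosts. In shYEATS2, replicate 2 was above replicate 1 in 8 of the 10 hosts, with log2 ratios from -0.21 for SNHG1 to 0.58 for EPB41L4A-AS1. In shNT replicate 2 was above replicate 1 in 6 of 10, with log2 ratios from -0.09 for SNHG16 to 0.40 for EPB41L4A-AS1. The share of all genes with replicate 2 above replicate 1 was not counted, so this direction is not shown to be particular to the hosts. YEATS2 was equally low in both knockdown libraries (665 and 673 scaled reads), and the part of the replicate difference in the host results was not tested.

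Levels can be set against each other only per length. CPM were divided by the length in kb of the Ensembl canonical transcript, from 498 bases for SNHG16 to 6166 bases for SNHG8, which may differ from the gene model the authors counted. On this scale SNHG5 (230 and 244 per kb) and GAS5 (208 and 232 per kb) were highest in the shNT libraries and overlapped. SNHG16 (137 and 129) and SNHG1 (128 and 126) followed, and then SNHG6 (42.8 and 42.2). The remaining hosts were lower, at 12.6 and 12.7 for SNHG15, 8.58 and 8.91 for SNHG8, 8.40 and 8.07 for SNHG7, 7.17 and 7.37 for SNHG12, and 3.10 and 4.11 for EPB41L4A-AS1. In the shYEATS2 libraries GAS5 (248 and 352 per kb) lay above SNHG5 (170 and 200 per kb) with no overlap. SNHG15, at 5.76 and 6.13 per kb, was then the lowest of the 10, and EPB41L4A-AS1 (7.13 and 10.6), SNHG8 (8.28 and 9.55) and SNHG12 (7.71 and 9.92) overlapped.

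**Figure D2:**
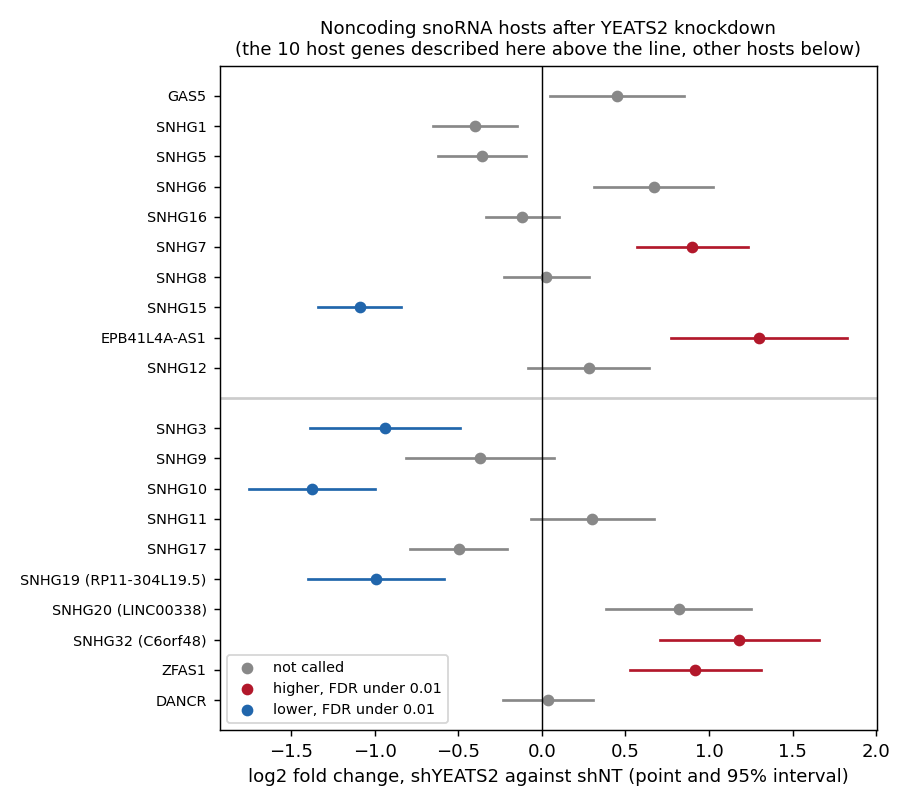
Log2 fold change of shYEATS2 against shNT with its 95% interval from edgeR's quasi-likelihood fit, for the 10 snoRNA host genes (above the line) and 10 other noncoding hosts (below it), coloured by call. Called genes lie on both sides of 0 in each set, from -1.09 to 1.30 above the line and from -1.37 to 1.18 below it.

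Of 17 other noncoding snoRNA hosts 10 had a row, 3 of them under an older name, and 3 were called lower and 2 higher, where 12.5% and 12.9% of all genes were, with a median log2 fold change of -0.17. Whether these genes differ from the 10 hosts was not tested. SNHG10 fell from 498 and 624 scaled reads in shNT to 212 and 221 in shYEATS2 libraries (log2 fold change -1.37, FDR 0.00149, quasi-likelihood test). SNHG19, listed as RP11-304L19.5, fell from 254 and 254 to 120 and 135 (log2 fold change -0.99, FDR 0.00476). SNHG3 fell from 2311 and 3062 to 1184 and 1621 (log2 fold change -0.94, FDR 0.00787). These 3 hosts thus fell to between 0.386 and 0.522 of their shNT level, but the call of SNHG3 was lost with scaling by total counts (FDR 0.0124), without shNT replicate 2 (0.0197) and without shYEATS2 replicate 1 (0.014), and that of SNHG19 without either shNT library (0.0247 and 0.0231).

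SNHG32, listed as C6orf48, rose from 4967 and 5897 scaled reads to 9794 and 14844 (log2 fold change 1.18, FDR 0.00438, quasi-likelihood test). ZFAS1, a host of C/D snoRNAs with a pyrimidine tract at its annotated first base, rose from 5184 and 5548 to 8427 and 11866 (log2 fold change 0.92, FDR 0.00525), and its call was lost without shNT replicate 1 (FDR 0.0153). In the whole list the number called lower was 1 without shNT replicate 2, and the number called higher was 1 without shNT replicate 1. SNHG20, listed as LINC00338, had a log2 fold change of 0.82 (FDR 0.0115). SNHG17 was at -0.50 (FDR 0.0156), SNHG9 at -0.37 (FDR 0.142), SNHG11 at 0.30 (FDR 0.144) and DANCR at 0.04 (FDR 0.798). As in 8 of the 10 hosts, shYEATS2 replicate 2 was above replicate 1 in SNHG32 and ZFAS1, and in every other gene of this list except SNHG9.

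Of 24 ribosomal protein genes that carry snoRNAs, 12 (50.0%) were called lower and none higher, against 12.5% and 12.9% of all genes. Their median log2 fold change was -0.46. At an unadjusted p under 0.05, 16 were lower and 0 higher, against 3528 lower and 3636 higher of all 12676 genes. The largest falls were in RPL7A, a host of box C/D snoRNAs (log2 fold change -1.29, FDR 0.000793, quasi-likelihood test), RPL32 (-1.19, FDR 0.000874) and RPL17 (-1.12, FDR 0.00092). In all, 23 of the 24 had both knockdown libraries below both controls, as did 39.8% of all genes. Of 21 other coding hosts 3 were called lower and none higher, with a median of -0.30, and their 14.3% called lower was near the 12.5% of all genes. These were NOP56, a core protein of box C/D particles (-1.02, FDR 0.00555), GNB2L1, a protein of the small ribosomal subunit also known as RACK1 (-0.74, FDR 0.00168), and the splicing factor gene SF3B3 (-0.66, FDR 0.00258). At an unadjusted p under 0.05, 9 of these 21 were lower and 4 higher, against the same 3528 and 3636 of all genes. Some were called higher in other fits, 1 with DESeq2 and with exactTest and 3 with the replicate block. The number called higher was 2 with total counts and at an FDR under 0.05. The number called lower was 1 without shNT replicate 1 and 6 without shYEATS2 replicate 1. Pseudogenes can take or add reads for ribosomal protein genes, so the values of single ones are uncertain. All ribosomal protein genes together took 6.69% and 7.06% of the reads in shNT and 4.71% and 4.89% in shYEATS2 libraries.

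Proteins that bind the released snoRNAs form the core of snoRNA particles. Of 8 such proteins 3 were called lower and none higher, against 12.5% and 12.9% of all genes, with a median log2 fold change of -0.49. For box C/D particles NOP56 was at -1.02, NOP58 fell to 3589 from 6550 mean scaled reads (-0.87, FDR 0.0023, quasi-likelihood test), and the methyltransferase gene FBL was at -0.94 without passing (FDR 0.0105). For box H/ACA particles GAR1 fell (-0.60, FDR 0.00576), whereas the pseudouridine synthase gene DKC1 (-0.37, FDR 0.108) and NOP10 (-0.10, FDR 0.379) were not called. All 8 had both knockdown libraries below both controls, which held for 39.8% of all genes. Of 11 assembly factors 4 were called lower and none higher, with a median of -0.41. The largest of these falls was in NAF1, which acts in H/ACA particle assembly (-1.59, FDR 0.00245), followed by SHQ1, a chaperone of DKC1 (-0.99, FDR 0.00221), and RUVBL2 (-0.80, FDR 0.0026). At an unadjusted p under 0.05, 6 core proteins and 7 assembly factors were lower and none was higher. Of all 12676 genes 3528 were lower and 3636 higher at that threshold. Without shNT replicate 1 the number of core proteins called lower was 1.

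Spliced snoRNA host RNAs are degraded by nonsense-mediated decay, and of 15 genes for its factors 3 were called lower and 1 higher, where 12.5% of all genes were lower and 12.9% higher, with a median log2 fold change of -0.06. EIF4A3, an exon junction protein, fell (-1.04, FDR 0.00377, quasi-likelihood test), as did the kinase gene SMG1 (-0.58, FDR 0.00368) and its partner SMG8 (-0.55, FDR 0.00713). SMG9, another partner of SMG1, rose (0.67, FDR 0.00828), and its call was lost without either shNT library or shYEATS2 replicate 1. The helicase gene UPF1 was at -0.07 (FDR 0.643). The number called lower was 1 without either shNT library. Of 17 TOP mRNAs that do not encode ribosomal proteins 16 had a row. Of these 4 (25.0%) were called lower and none higher, with a median of -0.27. At an unadjusted p under 0.05 there were 10 lower and 0 higher, against 3528 and 3636 of all 12676 genes. The called genes were HNRNPA1 (-0.95, FDR 0.0015), GNB2L1, EIF3E (-0.57, FDR 0.00823) and NPM1 (-0.57, FDR 0.00359). Without either shNT library the number was 2. LARP1, the protein that binds TOP starts, was at -0.02 (FDR 0.868). Members are shared between these lists, and the differences between lists were not tested.

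**Figure D3:**
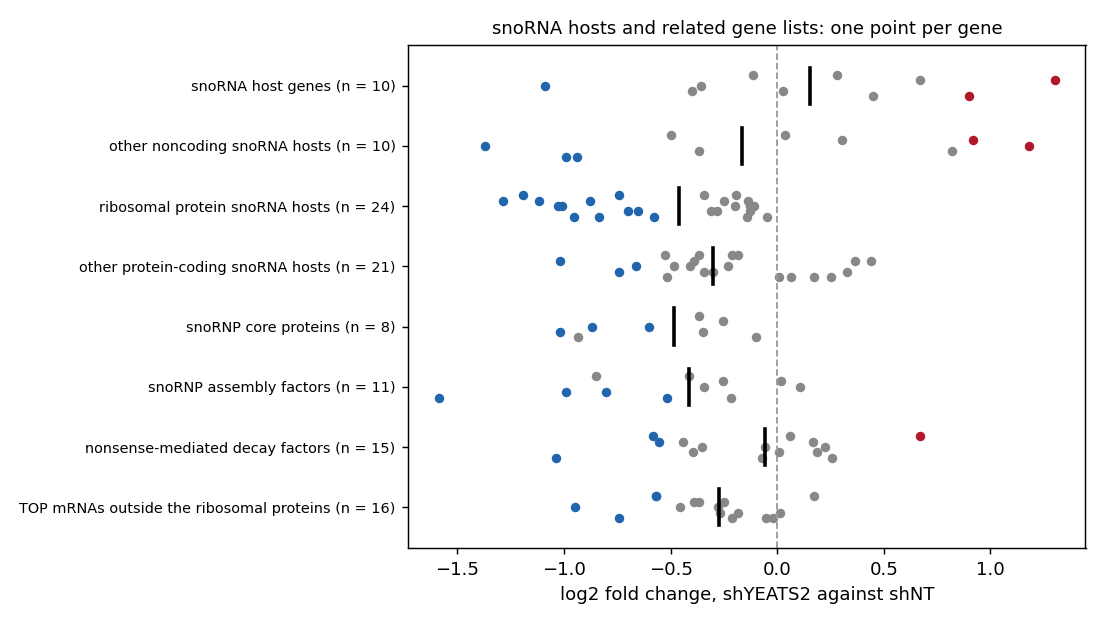
Log2 fold change of shYEATS2 against shNT for each tested gene of 8 lists, in blue for genes called lower, red for higher and grey for those not called at an FDR under 0.01, with black bars for list medians and a dashed line for the median of all genes. The 10 snoRNA host genes have a median of 0.15 and calls on both sides, and the 24 ribosomal protein hosts have a median of -0.46 and calls on the lower side.

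Reads of a host cannot be told apart from those of a gene on the opposite strand at the same bases, because the library kit named in the labels does not mark strand. By the annotation, exons of the Ensembl canonical transcript of 5 hosts overlap the span of such a gene that has a row. Exons of other transcripts were not searched. The log2 fold change was 0.55 for MCMDC2 at SNHG6 (FDR 0.0591, quasi-likelihood test), -0.14 for FAM69B at SNHG7 (FDR 0.512), -0.10 for PRSS12 at SNHG8 (FDR 0.483) and -0.18 for EPB41L4A at EPB41L4A-AS1 (FDR 0.347). TRNAU1AP, which lies opposite SNHG12, fell (-0.68, FDR 0.00357). The canonical transcript of SNHG15 had no such partner among the listed genes. That of GAS5 had none either, but the whole GAS5 gene reaches to 173838020, past the start of ZBTB37 at 173837220. ZBTB37 lies on the opposite strand and was at 0.14 (FDR 0.353, quasi-likelihood test).

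**Figure D4:**
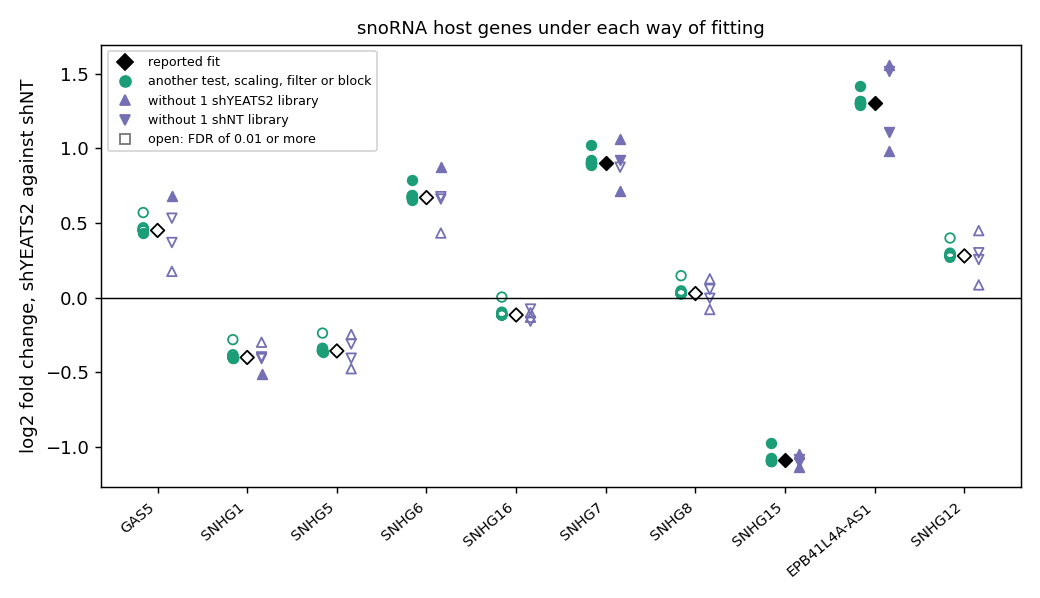
Log2 fold change of each snoRNA host gene under the reported fit (diamonds), 8 fits with another test, scaling, filter or block (circles) and 4 fits without 1 library (triangles), with open symbols for an FDR of 0.01 or more. SNHG15 and EPB41L4A-AS1 stay filled throughout, SNHG7 is open only without shNT replicate 2, and SNHG8 and SNHG16 lie around 0.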

How the data were processed

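Reads had been aligned to hg19 by the authors with the RNA-Seq unified mapper and assigned to genes by HTSeq under default parameters (version 0.6.1p1 in the submitters' processing notes). The deposited values are raw read counts. Each listed gene has at least 101 reads in some library, so less abundant hosts were not analysed here. The fold changes, p-values and FDR that the authors deposited beside the counts were not used, nor were the ChIP-seq samples of the series.

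Groups came from the sample titles. All 12676 genes passed the filter of 10 reads in 2 libraries. They were tested in edgeR 4.0.16 (R 4.3.3) by glmQLFit and glmQLFTest after TMM scaling, with no block, and called at a Benjamini-Hochberg FDR under 0.01. The SE is the log2 fold change divided by the root of F, and 95% intervals use the fitted degrees of freedom. With 2 libraries a group the error rests on few samples. The study calls them biological replicates. The biological coefficient of variation was 0.107. Alternatives were DESeq2 1.42.0, exactTest, other scalings and filters, a replicate block, an FDR under 0.05 and each library left out. The scripts were tested on simulated data.

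The members and gene lists were chosen with earlier results of these data known. Named genes are all members, all other noncoding hosts with a row, up to 3 largest falls and rises among the called genes of each list, genes starting within 2000 bases on the opposite strand, YEATS2 and markers. Other list genes named for their role were chosen after their values were seen. Listed symbols that were missing were matched by Ensembl identifier. Positions are from GENCODE version 44 on GRCh37, to which 12465 identifiers (98.3%) matched. Promoter sequences are those of RefSeq (GRCh38.p14), placed on GRCh37 by exact match, and snoRNA sequences were read from GRCh37. GENCODE on GRCh37 placed 4 snoRNA genes inside members, and nesting was therefore counted from the RefSeq gene table.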

Additional observations from a re-analysis of the deposited data

How the results depend on the processing

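SNHG15 and EPB41L4A-AS1 kept their direction and their call in all 12 alternative fits, and SNHG7 in all but 1. The number of hosts called lower, 1 in the reported fit, was 2 with DESeq2 and with exactTest, 3 with an FDR under 0.05, and between 1 and 2 when a library was left out. The number called higher, 2 in the reported fit, was between 1 and 4 with each library left out, lowest without shNT replicate 2 and highest without shYEATS2 replicate 1. The median log2 fold change was 0.27 with scaling by total counts, which moved the median of all genes to 0.12, and between 0.0033 (without shYEATS2 replicate 2) and 0.29 (without shYEATS2 replicate 1) with a library left out. In these last fits the lone library of a group is assumed to vary like the others, and the cause of the shifts was not tested. With the replicate number as a block 3 hosts were called lower and 4 higher, and over all genes 2715 lower and 2742 higher. Deviations of same-numbered libraries correlated at 0.399, but the labels name no shared batch and there are only 2 pairs. Whether same-numbered libraries share more than a number cannot be told from the labels and was not tested. Over all genes exactTest called 2497 lower and 2596 higher, and an FDR under 0.05 in the reported test called 3011 lower and 3093 higher. Without shNT replicate 1 the calls over all genes were 850 and 775, and without shNT replicate 2 they were 919 and 882. Of the other coding hosts 6 were lower with DESeq2, 5 with exactTest and 9 with the block. Dropping the filter only repeats the reported fit, because all 12676 genes pass it. That fit is counted among the 12 alternative fits and the 8 other tests, scalings and filters, but it is not a separate check.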

Other observations

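Some hosts share a start region with a coding gene on the opposite strand. The start of ZBTB37, a zinc finger gene, lies 93 bases from the start of the Ensembl canonical transcript of GAS5, inside the longer span that the annotation gives for the whole gene. It had 586 and 583 scaled reads in shNT and 603 and 689 in shYEATS2 libraries (log2 fold change 0.14, SE 0.12, FDR 0.353, edgeR's quasi-likelihood test). SLC3A2, which encodes the heavy chain of amino acid transporters, starts 51 bases from the annotated start of the SNHG1 gene. Its scaled counts were 7809 and 9323 in shNT and 11337 and 12715 in shYEATS2 libraries (log2 fold change 0.49, SE 0.12, FDR 0.0163, edgeR's quasi-likelihood test), so that both shYEATS2 libraries lay above the controls where those of SNHG1 lay below them. Neither SLC3A2 nor SNHG1 was called, and the difference between them was not tested.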
